A study of Mus musculus with 18 samples.

Results

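Among the 19938 genes with a transcript cluster of their own on the array, 10 were described here in mIMCD-3 cells, an immortalised line grown from the inner medullary collecting duct of the mouse kidney. They are Klhdc7a, Mab21l4, Tcim, Them6, Rida, G930009F23Rik, Map3k7cl, Rnf39, Adgra2 and Heg1, none of which is a textbook target of retinoic acid. These genes were picked for their response on these very arrays, so their differences between groups are given as a description, and the calls of the fit across all clusters that are counted for them further on are no independent evidence. Each gene was read from every cluster that the platform annotation assigns to its symbol alone, which gave 11 of the 23410 clusters with a symbol. Heg1 has 2 clusters, and the one with the higher mean over the 18 arrays is called cluster 1. No cluster with several symbols held any of the 10.

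Cells were kept in medium with serum and treated for 24 h in 2 experiments, each with 3 groups of 3 replicates from separate biological experiments. The first experiment compared vehicle, 1 µM AGN193109, and 1 µM AGN193109 with 0.2 µM all-trans retinoic acid (tRA). The second compared vehicle, 25 µM DEAB, and 25 µM DEAB with 0.01 µM tRA. Vehicle was ethanol and DMSO in both, and no group received tRA alone. All samples come from this 1 line, which limits them as a model of the duct. The question put to each gene was whether blocking the receptors or blocking tRA synthesis moved it, and whether added tRA moved it back. Because the inhibitors and the tRA doses differ, values of the 2 experiments stand side by side.

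tRA is made from vitamin A by retinol dehydrogenases, which form retinaldehyde, and by retinaldehyde dehydrogenases, which oxidise it further. It binds the retinoic acid receptors (RARs), which sit on DNA together with retinoid X receptors, often at direct repeats of a short half-site. Without ligand the pair recruits corepressors, and with ligand it recruits coactivators. AGN193109 is an antagonist of all RARs, and DEAB inhibits aldehyde dehydrogenases. Principal cells of the collecting duct, which handle water and sodium, are known for RAR activity in the absence of added ligand.

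Since 9 of the 11 clusters were lower and 2 higher with either inhibitor, the promoters of these genes are shown first. Of the 10 genes, 4 had a promoter window in the RefSeq-derived table of build GRCm38.p6, running from 250 bases before the start to 50 bases after it. Mab21l4 has 2 such windows, which overlap and hold the same half-site, and 1 of them is shown. The windows lie at chr4:139967977-139968276 on the minus strand for Klhdc7a, at chr1:93160899-93161198 on the minus strand for Mab21l4, at chr17:36942801-36943100 on the plus strand for Rnf39 and at chr16:33684216-33684515 on the plus strand for Heg1. Each is written 5′ to 3′ on the strand of its gene. Capitals mark every half-site on either strand, which is AGGTCA in its common form and was also searched as AGTTCA, together with the forms GGGTCA and, with both changes, GGTTCA.
Klhdc7a: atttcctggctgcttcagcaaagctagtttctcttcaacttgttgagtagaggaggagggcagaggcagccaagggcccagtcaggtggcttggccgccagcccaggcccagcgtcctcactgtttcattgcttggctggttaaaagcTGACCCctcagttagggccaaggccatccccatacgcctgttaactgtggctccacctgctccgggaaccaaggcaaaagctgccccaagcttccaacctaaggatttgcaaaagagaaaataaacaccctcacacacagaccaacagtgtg
Mab21l4: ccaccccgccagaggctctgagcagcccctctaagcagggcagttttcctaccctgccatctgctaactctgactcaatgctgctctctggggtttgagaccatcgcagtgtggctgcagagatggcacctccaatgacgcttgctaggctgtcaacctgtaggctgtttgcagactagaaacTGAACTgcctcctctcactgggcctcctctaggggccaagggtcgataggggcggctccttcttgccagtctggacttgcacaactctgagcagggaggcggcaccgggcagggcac
Rnf39: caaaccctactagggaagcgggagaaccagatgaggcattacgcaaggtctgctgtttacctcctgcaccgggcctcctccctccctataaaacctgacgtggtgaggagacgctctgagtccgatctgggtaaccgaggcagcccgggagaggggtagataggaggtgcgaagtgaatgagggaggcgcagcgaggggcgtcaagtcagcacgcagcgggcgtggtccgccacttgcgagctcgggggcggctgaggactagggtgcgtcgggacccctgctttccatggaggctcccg
Heg1: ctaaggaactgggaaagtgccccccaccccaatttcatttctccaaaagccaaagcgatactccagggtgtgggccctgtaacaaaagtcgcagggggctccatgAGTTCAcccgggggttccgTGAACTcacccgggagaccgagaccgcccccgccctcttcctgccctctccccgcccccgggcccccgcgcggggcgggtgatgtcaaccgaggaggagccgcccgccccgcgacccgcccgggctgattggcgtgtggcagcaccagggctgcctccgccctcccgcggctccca

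A half-site was found in 4 of the 5 windows, against 43.7% of the 32851 promoters of the table. The 4 include both overlapping windows of Mab21l4, which hold the same site. By gene, Klhdc7a, Mab21l4 and Heg1 had one and Rnf39 had none. In Klhdc7a it is GGGTCA on the opposite strand at position -102 relative to the start, and in Mab21l4 AGTTCA on the opposite strand at -67 from the start shown. Heg1 holds AGTTCA on its own strand at -145 and on the opposite strand at -126. None of the 5 windows held 2 half-sites as a direct repeat spaced by 1, 2 or 5 bases (DR1, DR2 or DR5). Over all promoters DR1 was found in 0.222%, DR2 in 0.268%, DR5 in 0.0974% and any of the 3 in 0.588%. With 1 mismatch allowed over the pair, the 5 windows still held none, while 6.32% of all promoters held one. These matches describe the letters of short windows and do not show where a receptor binds.

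Of 16 collecting duct markers, 10 lay above the median of the array on all 18 arrays, among them Cdh1, Epcam, Krt8, Krt18, Aqp2, Hsd11b2, Hoxb7 and Pax2. Aqp3, Aqp4, Avpr2, Scnn1a, Gata2 and Gata3 did not. Of 18 clusters for 6 other cell types, 3 did (Col1a1, Col3a1 and Cd68), and limma called none of the 34 marker clusters in any of the 6 comparisons, while 13 of those values had an unadjusted p under 0.05. The array reads no absolute zero, so a level below the median is not absence. Dhrs3, a retinaldehyde reductase induced by tRA in many cells, served as a check of the treatments. It was 3.10 ± 0.51 (log2, SE) lower with AGN193109 and 2.33 ± 0.58 lower with DEAB, and 1.19 ± 0.51 and 3.35 ± 0.58 higher again with tRA added. None of these passed the limma test at an adjusted p of 0.05, in a fit that does not pair the replicates. Dhrs3 read 6.94 to 7.24 under AGN193109 against 8.97 to 10.91 in vehicle, and 7.66 to 7.89 under DEAB against 8.86 to 10.83 in vehicle. Its vehicle level was lowest in replicate 2 of the first experiment, at 8.97 against 10.68 and 10.91, and in replicate 1 of the second, at 8.86 against 10.66 and 10.83. In each experiment, 5 of the 9 lower clusters also had their lowest vehicle level in that replicate, and 1 of the 2 higher clusters its highest. Klhdc7a, Rida and Map3k7cl, and Tcim among the higher, did so in both experiments. Others went the opposite way: Adgra2 (9.47) and G930009F23Rik (9.62) had their highest vehicle level in replicate 2 of the first, and Rnf39 its lowest (11.41) in replicate 1 of the second. The share of all clusters with such an order of vehicle arrays was not computed, so nothing is read from these counts. Rarb, an RAR gene induced by tRA in many cells, differed from vehicle by -0.12 ± 0.09 with AGN193109 and -0.11 ± 0.08 with DEAB, about as much as its replicates differed. Its group means of 6.11 to 6.24 and 6.29 to 6.58 lay under the 30th percentile of cluster means in each experiment (6.48 and 6.63). Rarb thus read near background, where log2 values understate changes. With tRA added to DEAB it was 0.29 ± 0.08 higher (limma adjusted p = 0.378), and these groups did not overlap.

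Klhdc7a, a protein with kelch repeats and little known function, showed the largest difference of the 11 clusters with either inhibitor. All values are log2 levels of the deposited data, given by replicate 1 to 3. Under AGN193109 the levels were 6.97, 6.76 and 6.86, against 8.86, 8.15 and 8.48 in vehicle and 8.02, 7.27 and 7.49 with tRA added. The 3 groups did not overlap, and the group with tRA lay between the others. The mean difference from vehicle was -1.63 ± 0.21 (SE, n = 3 per group), a 3.10-fold lower level. In these bulk samples, fewer cells with the transcript and less transcript per cell cannot be told apart. Adding tRA raised the level by 0.73 ± 0.21, which left it 0.90 ± 0.21 below vehicle.

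In the second experiment, Klhdc7a read 7.42, 7.96 and 7.85 under DEAB, against 8.43, 9.13 and 8.89 in vehicle and 8.42, 9.06 and 9.10 with tRA added. Vehicle and DEAB with tRA overlapped, and both lay above every DEAB array. The difference was -1.08 ± 0.24 with DEAB, a 2.11-fold lower level, and 1.12 ± 0.24 with tRA added. With tRA it differed from vehicle by 0.04 ± 0.24, within the spread between replicates.

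Mab21l4 belongs to the Mab-21 family, whose members share a fold with the DNA sensor cGAS. Its levels under AGN193109 were 9.16, 8.75 and 8.78, against 10.46, 10.05 and 9.79 in vehicle and 9.60, 9.47 and 9.24 with tRA added. The groups were again separate and in that order. The differences were -1.21 ± 0.18 for AGN193109, 0.54 ± 0.18 for added tRA and -0.66 ± 0.18 for both against vehicle. Under DEAB the levels were 9.72, 10.58 and 10.55, against 10.41, 11.06 and 10.88 in vehicle and 10.41, 11.06 and 10.89 with tRA. Replicate 1 lay below the others in all 3 groups, so that DEAB and vehicle overlapped, although each replicate was lower with DEAB than its own vehicle. The difference was -0.50 ± 0.27. With tRA no replicate differed from its own vehicle by more than 0.0107.

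**Figure D1:**
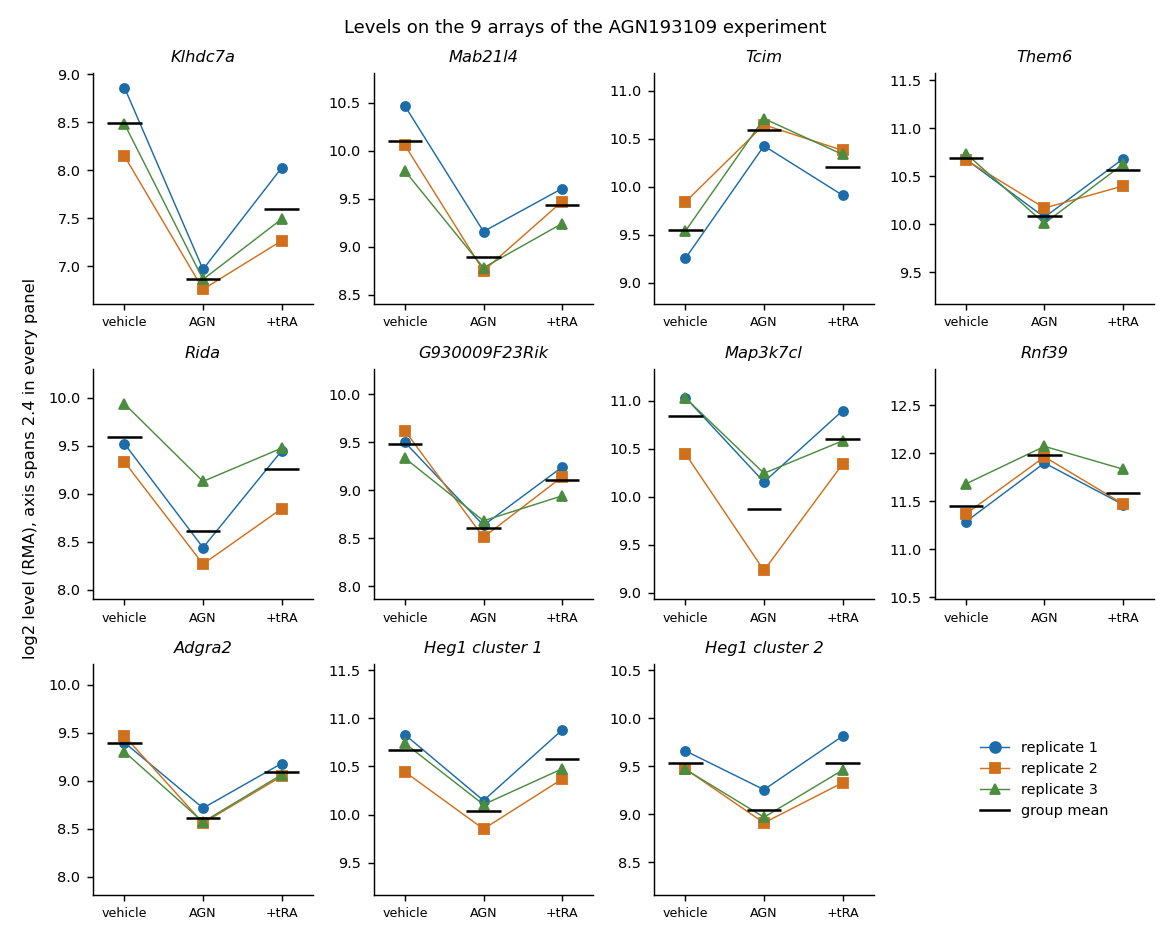
Log2 level (RMA, vertical axis, of the same span in every panel) of the 11 clusters on the 9 arrays of the AGN193109 experiment, in vehicle, AGN193109 (AGN) and AGN193109 with tRA (+tRA). Lines join arrays of the same replicate number and black bars are group means (n = 3): in all 11 panels the AGN193109 arrays lie clear of the vehicle arrays, above them for Tcim and Rnf39 and below them for the others.

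An enzyme and a protein of an enzyme superfamily stood among the lower genes. Rida is a deaminase that hydrolyses the reactive imines formed when amino acids are broken down. It read 8.44, 8.27 and 9.13 under AGN193109, against 9.52, 9.33 and 9.93 in vehicle and 9.44, 8.84 and 9.47 with tRA added. The difference was -0.98 ± 0.25 with AGN193109, with replicate 3 higher than the others in each group. Adding tRA raised it by 1.01, 0.58 and 0.35 in the 3 replicates, and the groups with and without tRA overlapped. Under DEAB its levels of 9.29, 9.53 and 9.67 lay below those of vehicle (9.96, 10.28 and 10.40) and of DEAB with tRA (10.10, 10.33 and 10.48). The replicates were close here: the difference from vehicle ran from -0.75 to -0.67, and tRA added 0.80 to 0.81.

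Them6 is a small protein of the thioesterase superfamily in the endoplasmic reticulum membrane. Its levels were 10.07, 10.17 and 10.01 under AGN193109, 10.68, 10.67 and 10.74 in vehicle and 10.68, 10.40 and 10.63 with tRA. Its pooled SD between replicates was 0.10 and 0.04 in the 2 experiments, against a median of 0.13 and 0.09 over all clusters with a symbol. The difference was -0.61 ± 0.09 with AGN193109, and with tRA added 0.48 ± 0.09. In the second experiment the levels were 10.61, 10.70 and 10.72 under DEAB, 10.90, 10.94 and 10.89 in vehicle and 11.04, 11.01 and 11.04 with tRA. The DEAB arrays were the lowest of the 9 and the DEAB with tRA arrays the highest, with no overlap between any 2 groups. The differences were small, at -0.23 ± 0.04 with DEAB and 0.35 ± 0.04 with tRA added.

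Map3k7cl resembles the C-terminal end of the kinase TAK1 (Map3k7), the part that binds its partners Tab2 and Tab3. It read 10.15, 9.23 and 10.24 under AGN193109, against 11.03, 10.45 and 11.03 in vehicle and 10.90, 10.34 and 10.58 with tRA added. Replicate 2 lay lowest in each group, and the pooled SD of 0.41 was the widest of the 11 clusters. The difference was -0.96 ± 0.27 with AGN193109, and tRA added 0.34 to 1.11. Under DEAB the levels were 10.53, 10.96 and 10.78, against 11.15, 11.59 and 11.42 in vehicle and 11.43, 11.75 and 11.75 with tRA. Each replicate was lower by 0.62 to 0.64 with DEAB, and each DEAB with tRA array lay above its own vehicle.

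2 of the genes encode cell surface proteins. Adgra2 (Gpr124) is an adhesion receptor that works with Reck to pass Wnt7 signals to Frizzled receptors. Its levels were 8.72, 8.56 and 8.57 under AGN193109, 9.40, 9.47 and 9.30 in vehicle and 9.18, 9.05 and 9.06 with tRA. The 3 groups were separate and narrow. The difference was -0.77 ± 0.08 with AGN193109, and tRA added 0.46 to 0.49 in the 3 replicates. Under DEAB the levels were 7.92, 8.18 and 8.57, against 8.59, 8.62 and 8.68 in vehicle and 8.72, 8.84 and 8.92 with tRA. The effect of DEAB thus ran from -0.67 in replicate 1 to -0.10 in replicate 3, although no DEAB array reached the lowest vehicle array.

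Heg1 is a transmembrane protein that anchors the cerebral cavernous malformation (CCM) protein Krit1 at cell junctions. Its cluster 1 read 10.15, 9.85 and 10.10 under AGN193109, 10.83, 10.44 and 10.74 in vehicle and 10.88, 10.37 and 10.48 with tRA. The difference was -0.64 ± 0.15 for this cluster and -0.49 ± 0.14 for cluster 2. With tRA both clusters overlapped vehicle and differed from it by -0.10 ± 0.15 and 0.00 ± 0.14. In the second experiment cluster 1 read 10.44, 10.36 and 10.38 under DEAB, 10.79, 10.88 and 10.67 in vehicle and 11.01, 11.06 and 10.96 with tRA. Its 3 groups were separate, with tRA the highest. Cluster 2 was separate in the same order, with differences of -0.30 ± 0.05 for DEAB and 0.50 ± 0.05 for added tRA, against -0.38 ± 0.06 and 0.61 ± 0.06 for cluster 1.

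G930009F23Rik is annotated as a long noncoding RNA on chromosome 15, and its role is not known. Its levels were 8.63, 8.51 and 8.68 under AGN193109, 9.50, 9.62 and 9.33 in vehicle and 9.24, 9.14 and 8.94 with tRA. The 3 groups were separate, with differences of -0.87 ± 0.10 for AGN193109 and 0.50 ± 0.10 for added tRA. Under DEAB it read 9.94, 9.67 and 9.71, against 10.32, 10.32 and 9.86 in vehicle and 10.14, 10.24 and 10.06 with tRA. The low vehicle array of replicate 3 made DEAB and vehicle overlap, and the difference was -0.39 ± 0.13.

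The 2 genes that were higher with the inhibitors are Tcim and Rnf39. Tcim (TC1) is a small protein known to favour Wnt and β-catenin signalling by binding the antagonist Chibby. It read 10.42, 10.64 and 10.71 under AGN193109, against 9.25, 9.84 and 9.54 in vehicle and 9.91, 10.38 and 10.33 with tRA. The groups did not overlap, and the difference was 1.05 ± 0.17, a 2.07-fold higher level, of which tRA took back 0.38 ± 0.17. Under DEAB it read 10.09, 9.92 and 9.72, against 10.05, 9.34 and 9.38 in vehicle and 9.83, 9.49 and 9.18 with tRA. Replicate 1 was barely higher with DEAB (0.04) and the other two were 0.58 and 0.34 higher, so that the groups overlapped. The mean difference of 0.32 ± 0.22 equalled the pooled SD of 0.32 between replicates.

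Rnf39 encodes a RING finger protein with a B30.2 domain, from the major histocompatibility region of chromosome 17. Its levels were 11.90, 11.96 and 12.07 under AGN193109, 11.29, 11.37 and 11.68 in vehicle and 11.47, 11.47 and 11.83 with tRA. The AGN193109 arrays lay above all others of the experiment, by 0.53 ± 0.13 over vehicle. In the second experiment it read 11.55, 11.94 and 11.89 under DEAB, 11.41, 11.68 and 11.60 in vehicle and 11.06, 11.45 and 11.41 with tRA. DEAB and vehicle overlapped, at a difference of 0.24 ± 0.13. With tRA every replicate was 0.48 to 0.49 below its DEAB array and 0.18 to 0.34 below its own vehicle.

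**Figure D2:**
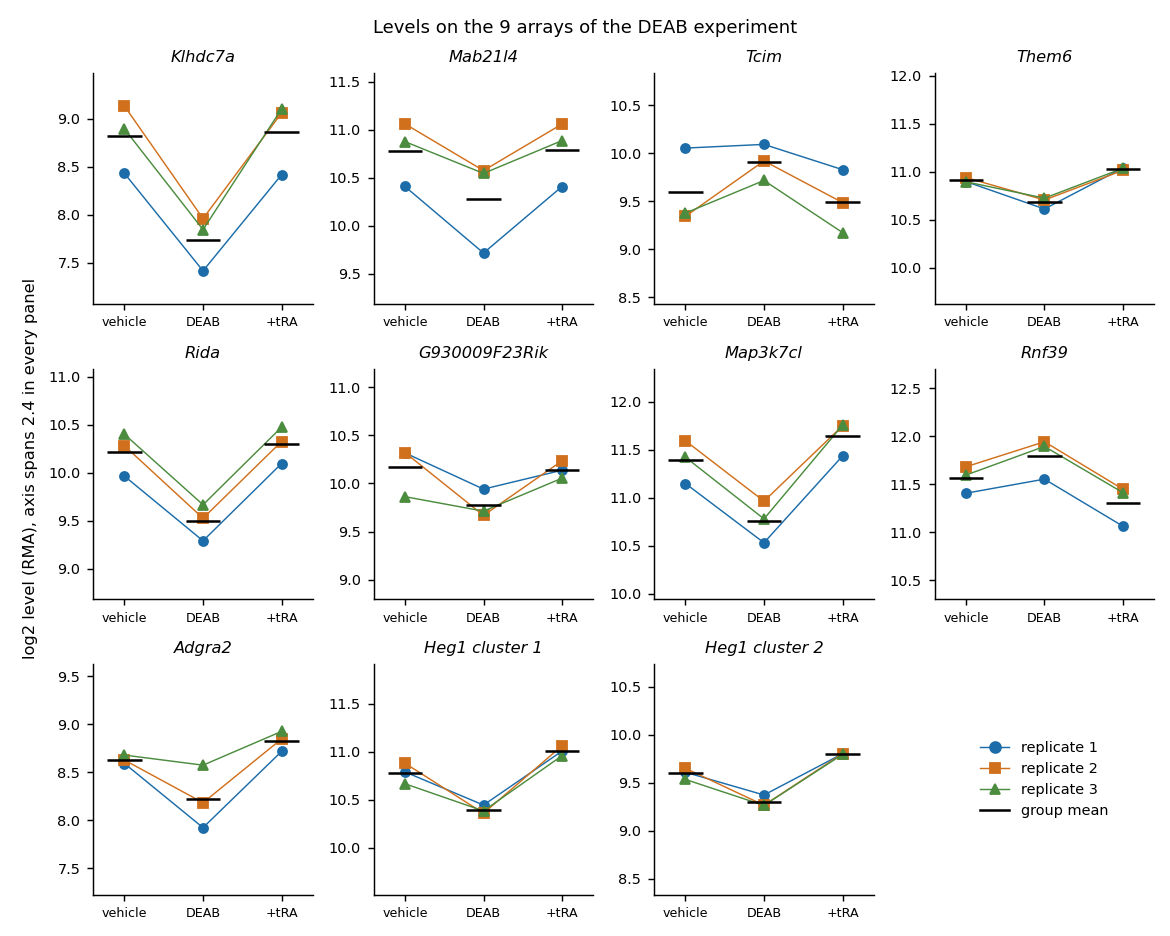
Log2 level (RMA, vertical axis, of the same span in every panel) of the 11 clusters on the 9 arrays of the DEAB experiment, in vehicle, DEAB and DEAB with tRA (+tRA). Lines join arrays of the same replicate number and black bars are group means (n = 3): every line runs down and up again for 9 clusters, and up and down for Tcim and Rnf39.

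Set side by side, the 11 clusters had a median difference of -0.77 with AGN193109, 0.50 with tRA added to it and -0.23 for both against vehicle. The corresponding medians were -0.39, 0.51 and 0.08 in the DEAB experiment, while the medians over all 23410 clusters lay between -0.01 and 0.02 in all 6 comparisons. The first 2 comparisons of each experiment share the inhibitor arrays, so opposite signs there are not separate evidence. All 11 clusters differed from vehicle without overlap under AGN193109, 9 lower and 2 higher, where 6.02% of all clusters did. The count was 10 of 11 for tRA added to AGN193109 (4.15% of all clusters), 5 for AGN193109 with tRA against vehicle (3.87%), 7 for DEAB (6.89%), 9 for tRA added to DEAB (9.21%) and 4 for DEAB with tRA against vehicle (8.07%). Since the choice of the genes used these contrasts, nothing is read from these counts.

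In the limma fit, with an adjusted p under 0.05 over all clusters as the threshold, Klhdc7a, G930009F23Rik and Adgra2 were called lower with AGN193109, where 0.0683% of all clusters were called. None was called for tRA added to AGN193109 (0.0214% of all clusters) or for DEAB (0.0342%), and Them6 and both Heg1 clusters were called higher for tRA added to DEAB (0.325%). Neither group with inhibitor and tRA gave a call against vehicle, among these clusters or among all (0% and 0%), where 418 and 1403 clusters had an unadjusted p under 0.05. Leaving out vehicle replicate 1, or AGN193109 replicate 1, 2 or 3, brought the count with AGN193109 to 0, 1, 0 and 0. Arrays of the same replicate number deviated together, and with a replicate block the fit called all 11 clusters with AGN193109 (0.457% of all clusters). The paired fit called none for tRA added to AGN193109 (0.0812%), 4 for DEAB (0.303%), 9 for tRA added to DEAB (1.5%) and none for either group with tRA against vehicle (0.00427% and 0.0214%). The 4 were Klhdc7a, Rida, Map3k7cl and Heg1 cluster 1, and Tcim and G930009F23Rik were the clusters not called among the 11 for tRA added to DEAB. These counts too come from the contrasts that chose the genes.

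**Figure D3:**
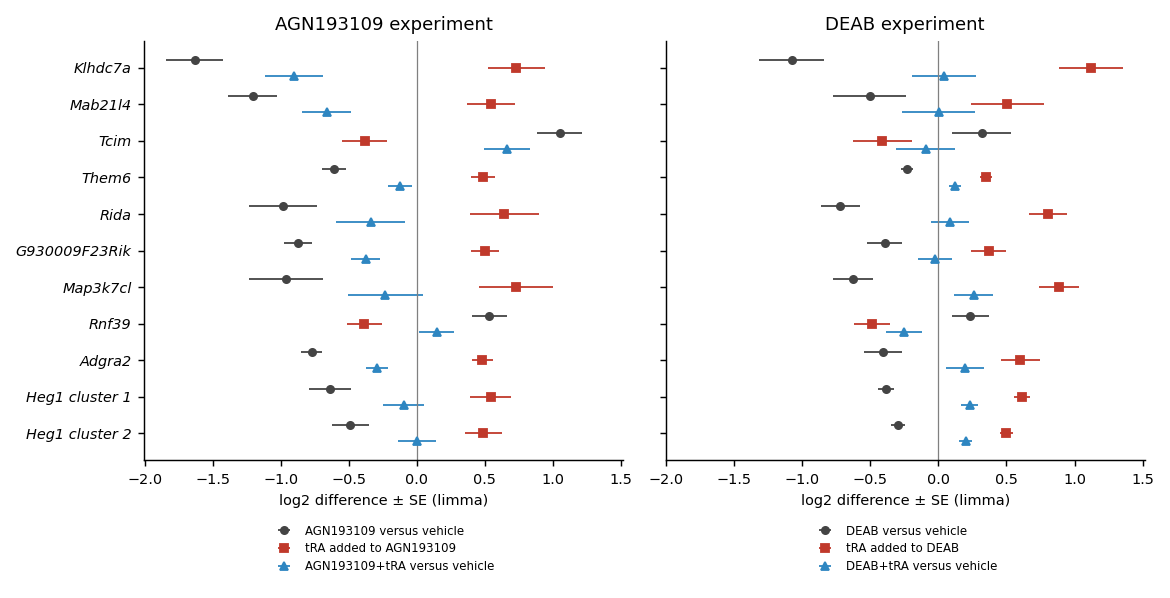
Log2 difference with its standard error from the limma fit (horizontal axis) for the 11 clusters (vertical axis), with the AGN193109 experiment on the left and the DEAB experiment on the right. Circles are inhibitor against vehicle, squares tRA added to the inhibitor and triangles inhibitor with tRA against vehicle: the triangles sit on the inhibitor's side of 0 for 10 of the 11 clusters on the left, from -0.90 to 0.66, and between -0.25 and 0.26 on the right.

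The effect of AGN193109 minus that of DEAB was estimated in a fit of all 18 arrays. For all 11 clusters the AGN193109 effect was the larger in size, with Tcim (0.73 ± 0.29) and Mab21l4 (-0.70 ± 0.34) farthest apart and Heg1 cluster 2 (-0.19 ± 0.15) nearest. The 11 clusters were picked for their response on these arrays, so nothing is read from this count. None was called, nor was any of the 23410 clusters (0%), of which 539 had an unadjusted p under 0.05. With the replicate block 1 cluster was called (0.00427%), which was none of the 11: Cpm, the gene of carboxypeptidase M, at -1.16 ± 0.11 (limma adjusted p = 0.00304), named after its value was seen. In that fit 1305 clusters had an unadjusted p under 0.05. In the fit without the block, the 95% interval of the difference, not adjusted for the number of clusters, ran from -0.59 to -0.17 for Them6. It also left out 0 for Tcim (0.12 to 1.34), G930009F23Rik (-0.84 to -0.12) and Adgra2 (-0.72 to -0.02). The intervals of the other clusters held 0, among them that of Heg1 cluster 2, from -0.51 to 0.13.

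The genes next to each of the 10 were taken by position alone, as the 2 nearest on each side that have a cluster, which gave 40 genes. Not all are close: the gap ran from 0 bases (Brf2, beside Adgra2) to 987540 bases (Sfrp1, taken for Tcim). None of the 40 was called by limma in any of the 6 comparisons, and at an unadjusted p under 0.05 there were 3, 3, 1, 1, 1 and 1. Over all 23410 clusters these counts were 772, 501, 418, 948, 1496 and 1403. With at most 0.325% of all clusters called in a comparison, the lack of a call among 40 genes says little about them. The median difference of the 40 was 0.00 with AGN193109, 0.03 for tRA added to DEAB and between -0.02 and 0.02 in the other 4 comparisons. Psca, a small GPI-anchored surface protein first found in prostate, lies next to Them6 on chromosome 15 and had the smallest adjusted p of the 40. Its levels were 7.34, 7.02 and 7.80 under AGN193109, 8.21, 7.84 and 8.70 in vehicle and 7.95, 7.68 and 8.37 with tRA. Replicate 3 lay highest in each group, and the highest AGN193109 array was still below the lowest vehicle array. Under DEAB it read 7.65, 7.65 and 7.53, against 7.94, 8.16 and 7.97 in vehicle and 7.97, 8.37 and 8.36 with tRA, with DEAB below both. The differences were -0.87 ± 0.26 with AGN193109 and 0.62 ± 0.11 for tRA added to DEAB, with limma adjusted p of 1 and 0.0795. Without DEAB with tRA replicate 1 the latter became 0.0151.

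With the replicate block, Psca was called lower with AGN193109 (limma adjusted p = 0.00114) and higher for tRA added to AGN193109 (0.0196) and to DEAB (0.0248), and missed the threshold for DEAB (0.226). Arhgef10l, the second of the genes taken on its side of Klhdc7a, at a gap of 546459 bases, was called lower with AGN193109 in that fit only (-0.48, adjusted p = 0.0443). Of the other neighbours, the next smallest adjusted p were those of Slc12a8, taken beside Heg1 (0.783), Sned1, beside Mab21l4 (0.809), and Trim40, beside Rnf39 (0.819), at differences of 0.12, -0.24 and 0.24.

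**Figure D4:**
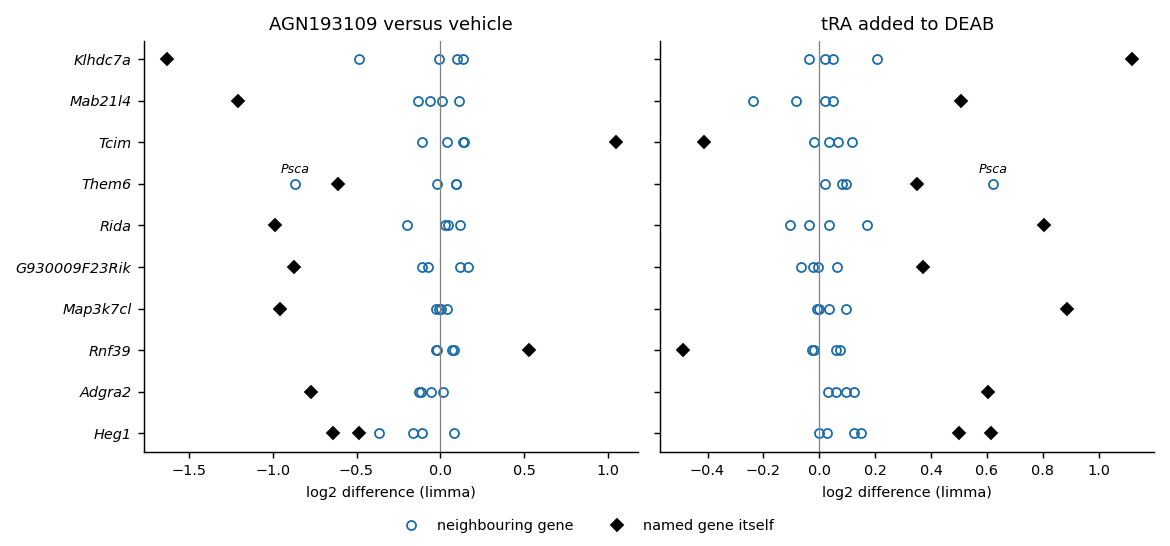
Log2 difference (limma, horizontal axis) of each of the 10 genes (black diamonds, 2 for Heg1) and of the 2 nearest genes on each side with a cluster (open circles), by row, for AGN193109 against vehicle (left) and tRA added to DEAB (right). Most circles lie near 0, and Psca, in the row of Them6, lies at -0.87 and 0.62.

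Families and partners of the 10 genes were followed through 9 lists of 90 genes, of which 85 had a cluster (87 clusters). Adgra1, a receptor of the same subfamily as Adgra2, was the 1 cluster called. It rose for tRA added to DEAB by 0.63 ± 0.08 (limma adjusted p = 0.0139), where 0.325% of all clusters were called. Its levels were 8.93, 8.88 and 8.64 under DEAB, 9.33, 9.44 and 9.27 in vehicle and 9.43, 9.47 and 9.44 with tRA, so that DEAB lay below both other groups. Its differences of -0.53 ± 0.08 with DEAB and -0.64 ± 0.12 with AGN193109 had adjusted p of 0.134 and 0.174. With the replicate block these became 0.0245 and 0.055, so that Adgra1 was also called lower with DEAB, and its rise had 0.00438. Leaving out 1 array of the DEAB or DEAB with tRA group moved the adjusted p of its rise to between 0.0219 and 0.081. Adgra3, the third member of that subfamily, differed by 0.12 ± 0.04 (adjusted p = 0.617).

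No other listed gene was called by limma, with or without the replicate block. At most 0.325% of all clusters were called in a comparison without the block and 1.5% with it, so this lack says little about the lists. In the fit without the block, 3, 1, 1, 4, 3 and 5 of the 87 clusters had an unadjusted p under 0.05 in the 6 comparisons. Over all 23410 clusters these counts were 772, 501, 418, 948, 1496 and 1403. In the TAK1 pathway (11 clusters) the smallest adjusted p was 0.294, for Map2k3, a kinase that activates p38, which was 0.26 ± 0.07 lower with tRA added to DEAB. Among the 12 clusters of the CCM complex and its targets, differences ran from -0.22 to 0.41, with Pdcd10 and Rasip1 both at an adjusted p of 0.819. Among the Mab-21 family the smallest was 0.773, for Mab21l1, which was 0.40 ± 0.09 above vehicle for DEAB with tRA. The lists for Tcim (Wnt and β-catenin pathway, 11 clusters), Klhdc7a (kelch-domain genes, 9), Them6 (thioesterases, 10), Rida (imine-forming enzymes, 9) and Rnf39 (RING and B30.2 genes, 8) stayed between -0.23 and 0.25 in all 6 comparisons. Their smallest adjusted p were 0.819 (Axin2), 0.827 (Klhdc9), 0.819 (Acot11), 0.828 (Thnsl2) and 0.819 (Trim40).

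Likeness of pattern was measured as Pearson r over the 18 arrays, after the mean of the 3 arrays of the same experiment and replicate number was taken off, and is given as a description. Rida was most like Tbc1d4 (r = 0.993), a Rab GTPase-activating protein of glucose transport, and Tinag (0.990), an antigen of the tubule basement membrane. Klhdc7a was most like Upk3b (0.988), a urothelial surface protein, and Mab21l4 like Foxj1 (0.983), the regulator of motile cilia. Adgra2 was nearest to Bcl3 (0.980), a nuclear partner of NF-κB, and Map3k7cl to the chemokine gene Ppbp (0.977). Heg1 was nearest to the kinase gene Nuak2 (0.975) for cluster 1 and to the glutathione transferase gene Gstm1 (0.972) for cluster 2. Rnf39 was nearest to Mfap3l (0.966), Tcim to Mtmr10 (0.959), Them6 to Hpcal1 (0.958) and G930009F23Rik to the protease gene Capn5 (0.956). Among the 11 clusters themselves, r was at least 0.76 in size for every pair, and the genes had been chosen for their shared response.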

How the data were processed

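The 18 samples were hybridised to Affymetrix Mouse Gene 1.0 ST arrays. The authors summarized probes with the Robust Multichip Average. The submitters' processing notes name Affymetrix Expression Console, while the study's methods call the software Gene Control Console (version: not given in the sources used here). Values were deposited by the authors as log2 values, 1 column per array, with no pooling. Array medians were 7.23 to 7.33 in the first experiment and 7.48 to 7.51 in the second, so groups were compared within an experiment, apart from the difference of the effects. The compound is spelled AGN193110 or AGN193099 in other fields of a few arrays, where the titles' AGN193109 was taken, and vehicle arrays were placed by the form of their description.

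Values were used as deposited. Group means of the 9 arrays of an experiment were fitted in limma 3.58.1 (R 4.3.3), with moderated variances and Benjamini-Hochberg adjustment over 23410 clusters with a symbol. Replicate numbers were used as a block in an alternative. Residuals of same-numbered arrays correlated at 0.198 to 0.645 and 0.179 to 0.614 in all 9 pairs of each experiment. Differently numbered arrays correlated at -0.575 to 0.205 and -0.511 to 0.312 in 18 pairs of each, so the ranges overlap. The labels call the replicates biological, and the numbers were taken to pair the arrays. Replicates of 1 cell line measure the spread between cultures. With 3 arrays per group the number of arrays limits the precision. Other alternatives were quantile normalization again, subtraction of array medians, leaving out clusters under the 30th percentile of mean level, all 35556 clusters, only the 6 arrays compared, all 18 arrays, and each array left out. Leaving out the replicate with the lowest Dhrs3 in vehicle was chosen after seeing the data.

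The members and lists were chosen with earlier results of these data known. Named were all members, the 4 neighbours and the 2 relatives per list with the smallest adjusted p, the genes with the highest r, and Dhrs3 and Rarb. Neighbours called only with the block were named after their values were seen. Genes were matched to RefSeq by gene ID, the array files naming no build. Python 3.11.15 and matplotlib 3.10.9 served for tables and plots.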

Additional observations from a re-analysis of the deposited data

Results flagged for a closer look

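In 8 of the genes whose differences are given, inhibitor with tRA differed from vehicle one way in all 3 replicates of the AGN193109 experiment and the other way in all 3 replicates of the DEAB experiment. The tRA dose was 0.2 µM in the first and 0.01 µM in the second, beside different inhibitors, and the difference between the experiments was not tested. Opposite signs were looked for only in the 10 genes, the named neighbours and relatives, Dhrs3 and Rarb. The share of all clusters with such a pattern was not computed, so nothing is read from the count. Rida was 0.34 below vehicle with AGN193109 and tRA and 0.08 above it with DEAB and tRA, a gap (AGN193109 experiment minus DEAB experiment) of -0.42 on the log2 scale. Map3k7cl was at -0.23 and 0.26, a gap of -0.49, and Adgra2 at -0.29 and 0.20, a gap of -0.49. Rnf39 went the other way, at 0.14 and -0.25, a gap of 0.40. Of the genes outside the 10, Dhrs3 was at -1.92 and 1.02 (gap -2.94), Psca was at -0.25 and 0.21 (gap -0.46), Adgra1 at -0.32 and 0.10 (gap -0.42) and Trim39 at 0.07 and -0.09 (gap 0.16). For tRA added to the inhibitor, Slc12a8, a neighbour of Heg1, was at -0.07 with AGN193109 and 0.12 with DEAB (gap -0.19), again in all replicates and not tested.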

How the results depend on the processing

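The sign of a difference says little of stability here, because the genes were picked on these contrasts and several alternatives leave the group means as they were. Among the 17 alternatives, for AGN193109 with tRA against vehicle the sign changed in 5 of 187 values, all of Heg1, and for DEAB with tRA against vehicle in 15 of 187. How many were called depended on the fit, among the 11 and among all clusters, whose share called is given in brackets. With AGN193109, where 3 of the 11 were called (0.0683%), the count was 11 with the replicate block (0.457%) and 6 with all 18 arrays in 1 fit (0.231%). It was 1 when clusters without a symbol were tested too (0.0225%). It was 0 with the 6 arrays compared only (0.00854%) and 0 without replicate 2 of all 3 groups (0.00427%). With 1 array left out it was 0 to 4 (0.0299% to 0.0726%), the losses coming without vehicle replicate 1 or any AGN193109 array. For tRA added to AGN193109 it was 1 with all 18 arrays (0.0384%) in place of 0 (0.0214%). For DEAB it was 4 with the replicate block (0.303%) in place of 0 (0.0342%). For tRA added to DEAB, where 3 were called (0.325%), it was 9 with the replicate block (1.5%) and 5 after quantile normalization again (0.376%). It was 1 without replicate 1 of all 3 groups (0.124%), and 2 to 3 with 1 array left out (0.094% to 0.273%). None of the 40 neighbours was called in the fit without the replicate block. With it, 2 were called with AGN193109 (0.457%) and 1 each for tRA added to AGN193109 (0.0812%) and to DEAB (1.5%). Leaving out 1 array gave 0 to 1 for tRA added to DEAB (1 without DEAB with tRA replicate 1, at 0.222%). Of the relatives, 1 was called with AGN193109 with all 18 arrays (0.231%), and 0 to 1 with 1 array left out (1 without vehicle replicate 2 of that experiment, at 0.0555%). With DEAB, 1 was called with the replicate block (0.303%). The 1 relative called for tRA added to DEAB became 0 with the 6 arrays compared only (0.107%) and without replicate 1 of all 3 groups (0.124%). With 1 array left out the count was 0 to 1 (0.094% to 0.273%), and 0 without any DEAB with tRA array or DEAB replicate 2. For the difference between the effects, the paired fit called none of the 11 clusters and 1 of all clusters in place of 0. With 1 mismatch the count of direct repeats in the 5 promoter windows was 0 as before. The causes were not tested. With 3 arrays per group, p-values rest on the model, and log2 values near background understate changes.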
